A study of Homo sapiens with 8 samples.

Results

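The 10 genes described here encode epigenetic regulators that are recurrently mutated in myeloid neoplasms: TET2, DNMT3A, ASXL1, EZH2, IDH1, IDH2, KDM6A, BCOR, BCORL1 and PHF6. They were chosen by symbol, by a rule that uses no measured value but was written with earlier results of these data known, and all 10 were found among the 25435 gene symbols of the count table. All 10 also passed the filter on low counts, which left 14898 genes for testing. The samples were 8 bulk RNA libraries of SET-2, an established human cell line from an essential thrombocythemia that had progressed to megakaryoblastic leukemia and that carries an activating JAK2 mutation. Every culture was transduced with a PLKO5 GFP virus carrying a guide RNA and grown in RPMI medium with foetal calf serum. The guide targeted ZRSR2 in 4 libraries (called knockout, as in the genotype label) and was non-targeting in the other 4. ZRSR2 is a splicing factor that helps recognise the 3′ splice site of minor, U12-type introns, and the series title asks whether its loss alters a JAK2-driven neoplasm. Both genotypes had 2 guides, and both guides were used in 2 experiments. In each genotype, replicate 1 (guide 1) and replicate 2 (guide 2) belong to experiment 1, while replicate 3 (guide 1) and replicate 4 (guide 2) belong to experiment 2. RNA was extracted 20 days after transduction in the first biological replicate and 25 days after it in the second, which are taken here, as an assumption, to be experiments 1 and 2. The source of Cas9, whether the knockout cultures were clones or pools, and whether SET-2 carries mutations in the 10 genes are not given in the sources used here.

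These genes act on DNA methylation or on histone marks. DNMT3A adds methyl groups to cytosine, and TET2 oxidises them using 2-oxoglutarate, which IDH1 in the cytosol and IDH2 in mitochondria make from isocitrate; mutant forms of both make 2-hydroxyglutarate, which inhibits TET2 and related enzymes. EZH2 is the catalytic subunit of Polycomb repressive complex 2 (PRC2), which methylates lysine 27 of histone H3, and KDM6A (also called UTX) removes that mark as part of the KMT2C/KMT2D complexes. ASXL1 partners the deubiquitinase BAP1 in the PR-DUB complex, which takes ubiquitin off histone H2A. BCOR and its relative BCORL1 are scaffolds of the variant Polycomb complex PRC1.1, which places that ubiquitin. PHF6 is a chromatin reader that binds the nucleosome remodelling complex NuRD. In blood stem and progenitor cells these proteins restrain self-renewal or guide differentiation, and their loss or mutation is frequent in clonal haematopoiesis and in myeloid disease. Of the 10 genes, 4 (KDM6A, BCOR, BCORL1 and PHF6) lie on the X chromosome, as annotated in GENCODE 29. The others lie on chromosomes 4 (TET2), 2 (DNMT3A and IDH1), 20 (ASXL1), 7 (EZH2) and 15 (IDH2).

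Promoter sequences are shown for 3 of the 4 members whose window lay near a coding start, as defined below. KDM6A and EZH2 act in opposite ways on the same histone lysine and differed in opposite directions between the experiments, and ASXL1 was the steadiest of the 10. Each run is the 250 bases before a RefSeq transcription start on GRCh38.p14, 5′ to 3′ on the strand of the gene. Windows were matched for 9 of the 10 members, and in 4 of them (DNMT3A, ASXL1, EZH2 and KDM6A) the RefSeq start lay within 100 bases of the start of the longest GENCODE 29 coding transcript. The KDM6A window is chrX:44872938-44873187 on the plus strand, the EZH2 window chr7:148884292-148884541 on the minus strand and the ASXL1 window chr20:32358081-32358330 on the plus strand. Capitals mark matches, on either strand, to 8 motifs. The box named for its letters is CCAAT. The GC box was searched as GGGCGG, and the E-box was searched as CACGTG. For ETS factors the letters were CCGGAAGT. For E2F they were TTCGCGC, with TTGGCGC as the other accepted form. The NRF1 palindrome is given here by name alone. The GATA motif was searched as AGATAA, and the STAT motif as TTCNNNGAA, where N is any base.
KDM6A: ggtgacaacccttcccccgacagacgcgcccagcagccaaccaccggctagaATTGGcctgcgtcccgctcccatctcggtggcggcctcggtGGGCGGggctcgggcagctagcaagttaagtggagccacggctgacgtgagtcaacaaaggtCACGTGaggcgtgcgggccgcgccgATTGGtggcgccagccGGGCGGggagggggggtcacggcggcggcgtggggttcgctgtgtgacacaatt
EZH2: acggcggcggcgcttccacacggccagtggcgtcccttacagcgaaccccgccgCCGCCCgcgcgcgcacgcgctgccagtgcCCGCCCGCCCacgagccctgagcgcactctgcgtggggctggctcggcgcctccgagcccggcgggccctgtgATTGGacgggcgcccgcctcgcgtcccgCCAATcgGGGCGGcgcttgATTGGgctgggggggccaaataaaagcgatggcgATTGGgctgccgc
ASXL1: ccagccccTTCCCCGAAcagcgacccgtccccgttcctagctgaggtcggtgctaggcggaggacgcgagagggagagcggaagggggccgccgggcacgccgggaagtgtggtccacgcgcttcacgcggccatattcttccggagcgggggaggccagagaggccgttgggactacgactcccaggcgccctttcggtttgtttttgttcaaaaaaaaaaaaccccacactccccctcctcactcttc
The KDM6A window held 2 CCAAT boxes, 2 GC boxes and 1 E-box. The EZH2 window held 4 CCAAT boxes and 4 GC boxes, of which a pair overlap. In the ASXL1 window the single match was to the STAT motif. Among all 35116 RefSeq windows of the same length, 32.0% held a CCAAT box, 42.6% a GC box, 6.34% an E-box and 6.57% the STAT motif. The remaining motifs, found in none of the 4 member windows scanned, occurred in 3.42% (ETS), 4.24% (E2F), 1.03% (NRF1) and 9.17% (GATA) of windows. All 3 runs were GC-rich and held many CG dinucleotides, the bases that DNMT3A and TET2 act on: EZH2 had 75.6% GC and 38 CG, KDM6A 69.2% and 27, and ASXL1 64.0% and 23, against medians of 58.0% and 11 over all windows. The DNMT3A window, scanned but not printed, matched none of the motifs and had 65.6% GC and 12 CG, close to the median in CG. A match is a description of the letters and not a measured binding site, and methylation was not measured in these samples.

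Depth and the libraries bear on what follows. Totals ran from 31106042 to 71521173 expected counts, the highest in non-targeting replicate 3, and the 10 members had between 1038 and 25713 counts each in a library. Levels are given as CPM, counts per 1000000 counts of a library scaled by TMM factors. ZRSR2 itself averaged 24.8 ± 4.99 CPM in the knockout and 39.5 ± 1.34 CPM in the non-targeting libraries (SD, n = 4 each), so the knockout stood at 62.9% of control and the groups did not overlap. The ZRSR2 transcript was thus lowered in part. Its log2 fold change was −0.67 (SE 0.15) and its edgeR adjusted p was 1 under genotype alone and 0.275 when the experiment was a block, while DESeq2 with that block gave 5.38e-04. Markers of the labelled lineage were present: 10 of 11 megakaryocyte genes were at 1 CPM or more in every library, as were 10 of 10 erythroid genes, 3 of 8 granulocyte and monocyte genes, 3 of 8 lymphoid genes and 4 of 7 stromal and epithelial genes, with the B-cell marker MS4A1 at 0 counts throughout. Libraries of the same experiment resembled each other far more than libraries of the same genotype, so each comparison of genotypes is also given within experiments.

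Per kilobase of transcript, IDH2 stood highest among the members and DNMT3A lowest. Dividing CPM by the length of the longest coding transcript in GENCODE 29, IDH2 was at 99.3 ± 24.8 CPM per kb and IDH1, the cytosolic enzyme, at 45.0 ± 4.80 CPM per kb (SD, n = 8 libraries). The ranges of these 2 genes overlapped neither each other nor those of the other members. BCOR at 27.5 ± 1.48 and ASXL1 at 26.9 ± 0.80 CPM per kb came next and overlapped. Below them lay BCORL1 at 15.5 ± 0.94, PHF6 at 15.4 ± 1.57, KDM6A at 12.7 ± 2.05 and EZH2 at 11.9 ± 1.57 CPM per kb, each overlapping its neighbour in the order. TET2 at 6.40 ± 1.27 and DNMT3A at 5.64 ± 1.04 CPM per kb were the lowest and overlapped each other. With the length of all exons joined in place of the longest transcript, PHF6 and KDM6A changed places, as did TET2 and DNMT3A, and the first 5 places were the same. The lengths come from GENCODE 29 and not from the annotation behind the counts, which is not given in the sources used here, so the order holds only as far as those transcripts are the ones expressed.

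**Figure D1:**
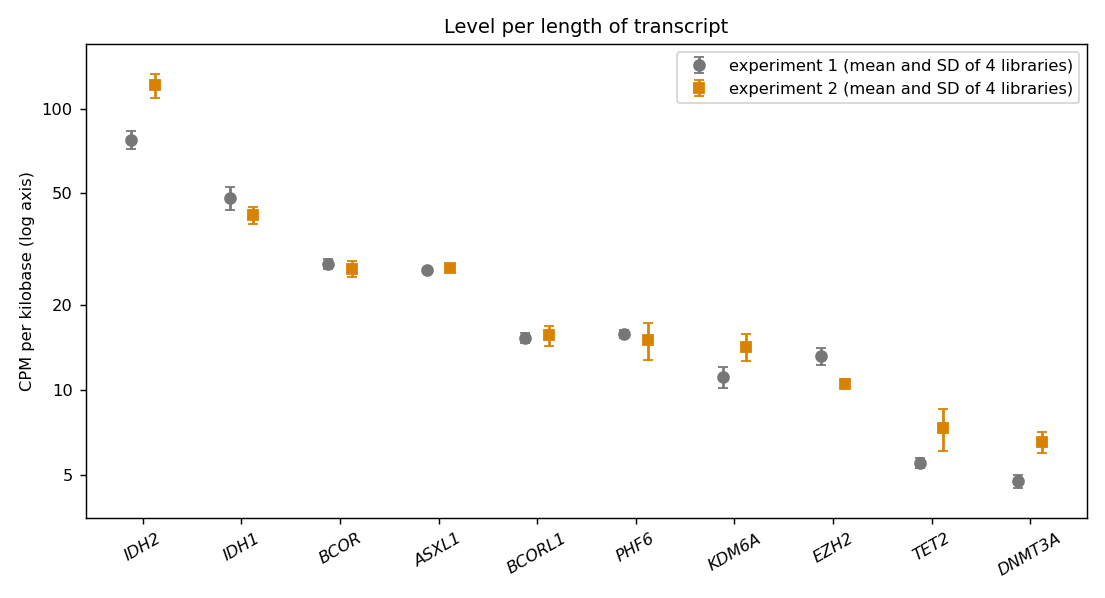
CPM per kilobase of the longest coding transcript (log axis) for the 10 regulators, with the mean and SD of the 4 libraries of experiment 1 (grey circles) and of experiment 2 (orange squares). IDH2 is highest in both experiments and DNMT3A lowest, and the experiments lie apart for IDH2 and together for ASXL1.

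Knockout was compared with non-targeting to ask whether ZRSR2 loss alters expression of these regulators. None of the 10 passed the test. The fitted fold of knockout over non-targeting ran from 0.904 for IDH2 to 1.13 for IDH1, and the genotypes overlapped in all 10 members, where 0.678% of all tested genes had no overlap. In edgeR's quasi-likelihood test with genotype alone, 0 of 14898 genes were called, or 0%, and 89 had an unadjusted p under 0.05, or 0.597%, none of them a member. When the experiment was added as a block edgeR again called 0; 690 genes (4.63%) then had an unadjusted p under 0.05, among them 1 member, IDH1. DESeq2 called 4 genes without the block and 31 with it, and none of these was a member.

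The size of change that these libraries leave possible can be read from the intervals. With the block, the 95% intervals of the 10 members together spanned −0.32 (TET2) to 0.32 (IDH1) on the log2 scale, that is 0.80- to 1.25-fold. With genotype alone, where the difference between experiments counts as error, they spanned 0.624- to 1.34-fold. Absolute log2 fold changes of the members had a median of 0.04, against 0.07 over all tested genes, and 7 of 10 were below 0, against 51.3% of all genes. Summed levels of the 10 erythroid markers did not overlap between genotypes, at 2528 to 2741 CPM in knockout and 2953 to 3141 CPM in non-targeting libraries. TFRC alone was 40.1% of that sum. All 10 markers had a negative log2 fold change with 0 called, and the part of this difference in the members' values was not tested.

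**Figure D2:**
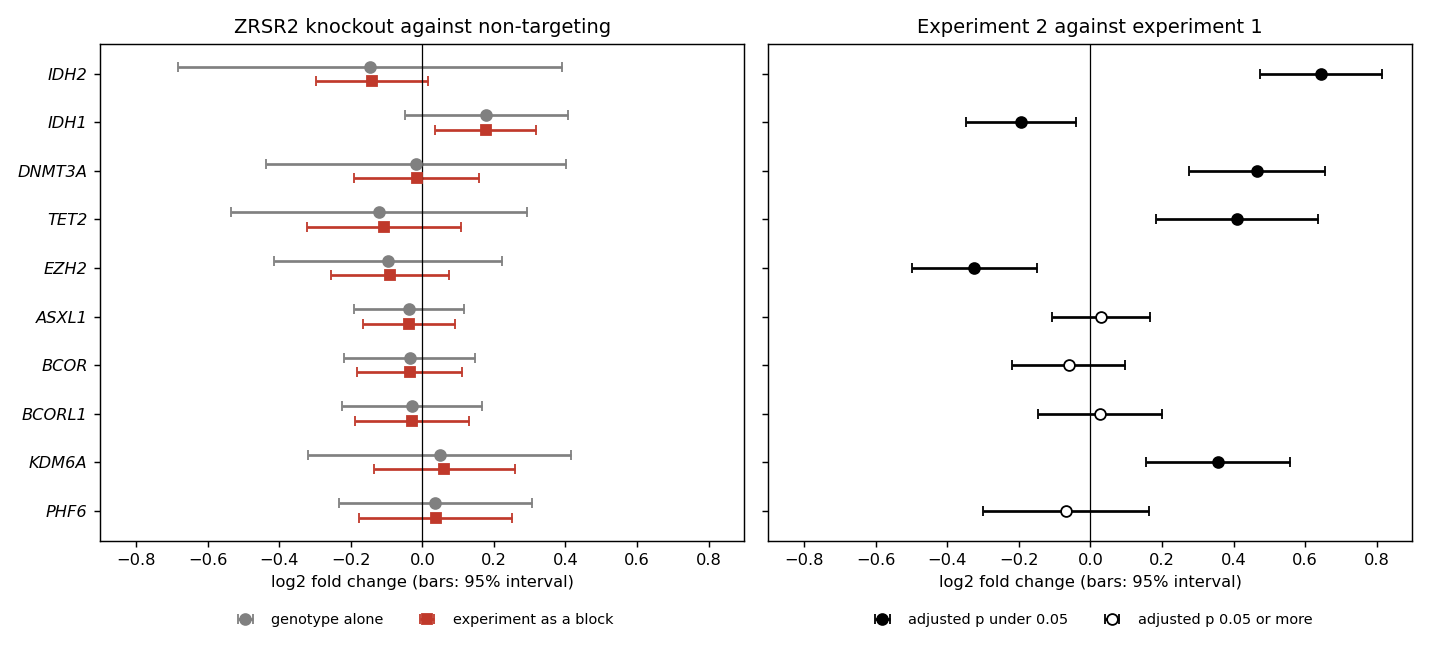
Log2 fold change and 95% interval of each regulator for knockout against non-targeting (left; grey circles for genotype alone, red squares with the experiment as a block) and for experiment 2 against experiment 1 (right; filled where the edgeR adjusted p is under 0.05). On the left every interval except that of IDH1 with the block includes 0, and on the right 6 of 10 members are called, 4 higher and 2 lower.

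The larger contrast in the data was between the experiments, and 6 of the 10 members differed in it. IDH2, DNMT3A, TET2 and KDM6A were higher in experiment 2, and EZH2 and IDH1 were lower. The other 4 (ASXL1, BCOR, BCORL1 and PHF6) did not pass the test. Over all tested genes 58.2% were called in this contrast (29.6% higher and 28.6% lower), so 6 of 10 is near the background. In 5 of 10 members the 4 libraries of one experiment did not overlap those of the other, where 56% of all tested genes showed no overlap. In the non-targeting libraries alone 5 members were called (TET2, DNMT3A, IDH2 and KDM6A higher, EZH2 lower), beside 46.9% of all tested genes, and in the knockout libraries alone 2 (DNMT3A and IDH2, both higher), beside 36.9%. There TET2 had an edgeR adjusted p of 0.103, EZH2 of 0.0854 and KDM6A of 0.157, with the same signs as over all libraries, and no difference between the genotypes in these changes was called. The median absolute log2 fold change was 0.26 over the members and 0.37 over all tested genes. Experiment, day of extraction and any other difference between the 2 series of cultures cannot be told apart here. Libraries of 1 series stand as its replicates in this test, so its p-values do not measure the spread between repeated experiments. Summed proliferation genes ran from 2551 to 2604 CPM in experiment 1 and from 2706 to 3029 CPM in experiment 2, with 5 of the 12 genes called higher and 2 lower. Summed granulocyte and monocyte markers ran from 377.7 to 412.4 and from 431.7 to 513.8 CPM (LYZ was 53.3% of that sum). Summed lymphoid markers ran from 16.2 to 17.9 and from 42.2 to 58.5 CPM (CD79A was 77.0% of the lymphoid sum). The part of these marker sums in the members' values was not tested. In bulk RNA, fewer cells of a type and less RNA per cell cannot be told apart.

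**Figure D3:**
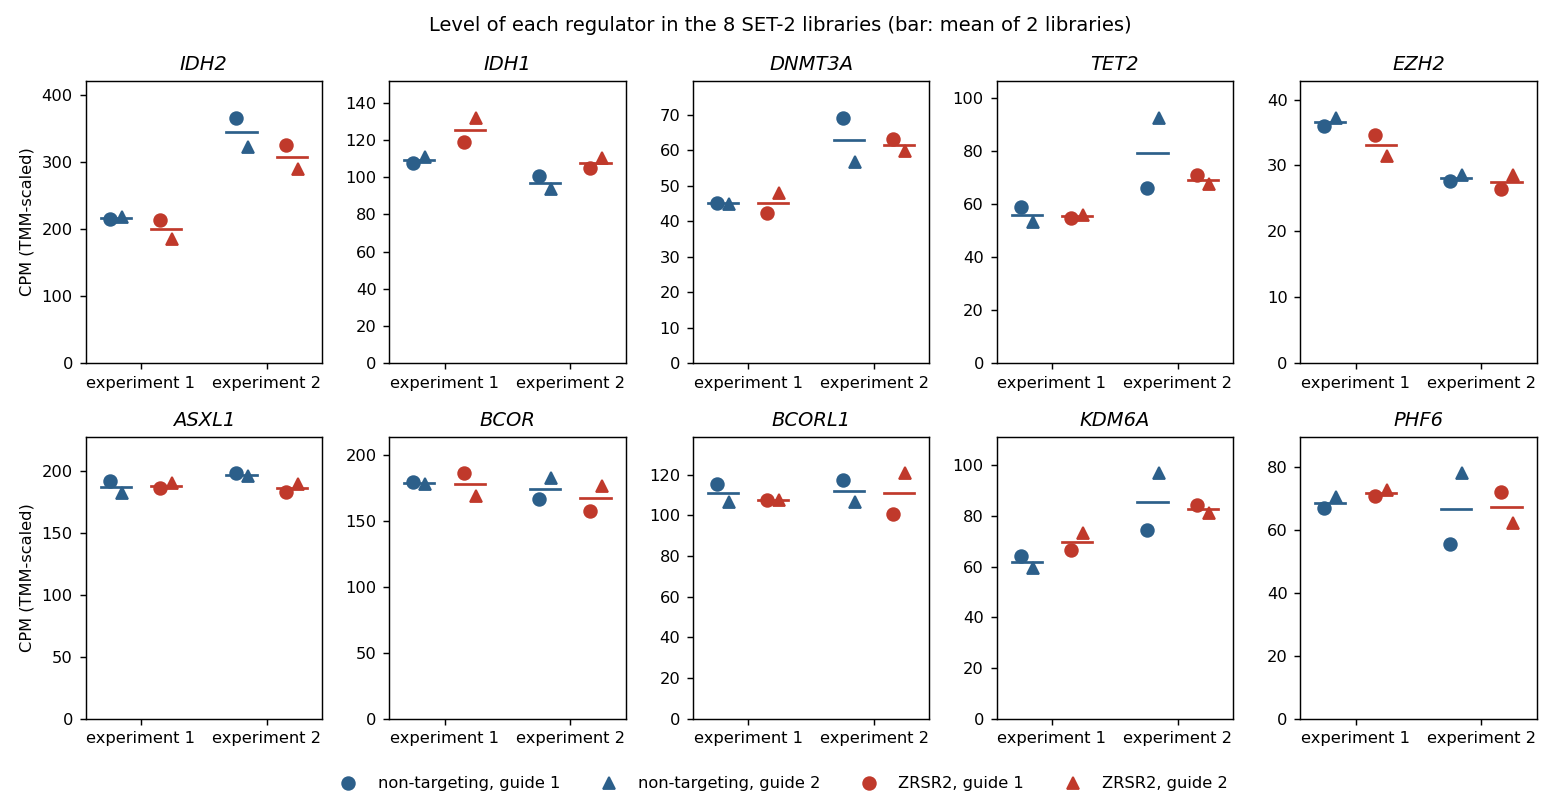
CPM of each regulator in the 8 libraries, by experiment, with non-targeting in blue and ZRSR2 guides in red, guide 1 as circles and guide 2 as triangles, and a bar at the mean of 2 libraries. IDH2, DNMT3A, TET2 and KDM6A sit higher in all 4 libraries of experiment 2 than in any of experiment 1, EZH2 sits lower, and over the 8 libraries the genotypes overlap in all 10 panels.

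Among the members, the de novo methyltransferase DNMT3A and its opponent TET2 were both higher in experiment 2. DNMT3B, the other de novo methyltransferase, was lower (log2 fold change −0.41, edgeR adjusted p = 3.14e-04). TET2 measured 54.9, 55.9, 71.0 and 67.5 CPM across knockout replicates 1 to 4 and 58.9, 53.4, 66.1 and 92.7 CPM across non-targeting replicates 1 to 4. All 4 libraries of experiment 2 lay above all of experiment 1, and non-targeting replicate 4 stood above the rest. The experiment means were 55.8 ± 2.31 and 74.3 ± 12.4 CPM (SD, n = 4 each), so TET2 rose by 0.41 on the log2 scale (SE 0.10, edgeR adjusted p = 0.00544). For knockout against non-targeting TET2 gave −0.12 (SE 0.18, edgeR adjusted p = 1), and its sign turned to 0.08 without non-targeting replicate 4. That fit has no term for experiment. Leaving out 1 library thus also makes the experiments unequal between the genotypes, here and in the pooled values of the other members.

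DNMT3A was at 42.2, 47.8, 63.1 and 59.8 CPM in the knockout and at 45.2, 44.8, 69.1 and 56.6 CPM in the non-targeting replicates 1 to 4. Experiments were again apart, at 45.0 ± 2.30 and 62.1 ± 5.33 CPM, and the log2 fold change was 0.47 (SE 0.09, edgeR adjusted p = 8.71e-04). Genotypes had nearly the same mean, 53.2 ± 9.84 and 53.9 ± 11.5 CPM, and the log2 fold change was −0.02 (SE 0.18, edgeR adjusted p = 1); its sign was positive without any 1 of 4 libraries (knockout replicates 1 and 2, non-targeting replicates 3 and 4; 0.12 at most) and 0.01 when scaled by total counts alone. The ratio of TET2 to DNMT3A counts lay between 1.13 and 1.3 in 6 of the 8 libraries and was 0.957 in non-targeting replicate 3 and 1.64 in non-targeting replicate 4, the 2 controls of experiment 2; this ratio was examined after the values were seen.

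The isocitrate dehydrogenases moved apart between the experiments. IDH2, the mitochondrial enzyme, measured 214, 186, 325 and 291 CPM across knockout replicates 1 to 4 and 215, 219, 366 and 323 CPM across non-targeting replicates 1 to 4. It had the largest change of the 10 members between experiments, from 208.5 ± 15.2 to 326.3 ± 31.1 CPM; the log2 fold change was 0.65 (SE 0.08, edgeR adjusted p = 4.89e-05). In each experiment the IDH2 mean was lower in knockout than in non-targeting libraries, 200.1 ± 20.1 against 216.9 ± 2.63 CPM and 307.9 ± 24.4 against 344.8 ± 30.7 CPM (SD, n = 2 each). That difference did not pass the test: the pooled log2 fold change was −0.15 (SE 0.24, edgeR adjusted p = 1), and with the block it was −0.14 with a 95% interval of −0.30 to 0.02. Without non-targeting replicate 3, a library of experiment 2, the pooled value was 0.01.

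IDH1, the cytosolic enzyme, was at 119, 132, 105 and 110.5 CPM in the knockout and at 107.5, 111, 100.5 and 93.3 CPM in the non-targeting replicates 1 to 4. Both knockout libraries lay above both non-targeting libraries within each experiment. Of all tested genes, 36.4% had such a gap, in either direction, in experiment 1 and 23.5% in experiment 2. Pooled over experiments the genotypes overlapped. The log2 fold change was 0.18 (SE 0.10, edgeR adjusted p = 1) with genotype alone and 0.18 with the block, with a 95% interval of 0.04 to 0.32, an unadjusted edgeR p of 0.0182 and an adjusted p of 0.959; DESeq2 with the block gave an adjusted p of 0.879. IDH1 thus had the smallest p of the members for genotype, and it was not called by any of the fits run.

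Between experiments IDH1 fell from 117.3 ± 10.9 to 102.3 ± 7.27 CPM, and its log2 fold change was −0.20 (SE 0.07, edgeR adjusted p = 0.0321), and the experiments overlapped. This call was lost without any 1 of 4 libraries, with adjusted p-values of 0.127 without knockout replicate 2, 0.0923 without non-targeting replicate 1, 0.129 without non-targeting replicate 2 and 0.0836 without knockout replicate 3. It was also lost with no count filter, at an adjusted p of 0.0550. A gene on the opposite strand, IDH1-AS1, overlaps IDH1, and TET2-AS1 overlaps TET2; since use of strand in the counting is not given in the sources used here, reads of the partners cannot be told apart from those of the members.

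EZH2 and KDM6A, which write and erase methylation at lysine 27 of histone H3, differed in opposite directions between the experiments. Of their paralogues, EZH1 was higher in experiment 2, unlike EZH2 (log2 fold change 0.40, edgeR adjusted p = 0.0116). KDM6B was not called (log2 fold change 0.14, edgeR adjusted p = 0.320). EZH2, the writer, measured 34.6, 31.5, 26.5 and 28.5 CPM across knockout replicates 1 to 4 and 36.0, 37.2, 27.7 and 28.5 CPM across non-targeting replicates 1 to 4. All libraries of experiment 2 lay below all of experiment 1, 27.8 ± 0.98 against 34.8 ± 2.47 CPM, and EZH2 fell by 0.32 on the log2 scale (SE 0.08, edgeR adjusted p = 0.00489). In experiment 1 both knockout libraries were below both controls, and in experiment 2 they overlapped. The pooled log2 fold change of knockout against non-targeting was −0.10 (SE 0.14, edgeR adjusted p = 1), and it ran from −0.17 without knockout replicate 1 to −0.02 without non-targeting replicate 2.

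KDM6A, the eraser, was at 66.4, 73.3, 84.4 and 81.3 CPM in the knockout and at 64.4, 59.5, 74.6 and 96.9 CPM in the non-targeting replicates 1 to 4. It rose from 65.9 ± 5.71 to 84.3 ± 9.34 CPM between experiments, by 0.36 on the log2 scale (SE 0.09, edgeR adjusted p = 0.00627), with no overlap. Knockout exceeded control in experiment 1, and in experiment 2 the 2 controls bracketed the knockout libraries. Pooled, KDM6A gave 0.05 (SE 0.16, edgeR adjusted p = 1), and the sign turned without non-targeting replicate 1 (−0.01), non-targeting replicate 2 (−0.04) or knockout replicate 3 (−0.0027). The ratio of EZH2 to KDM6A counts, examined after the values were seen, was 0.52, 0.43, 0.56 and 0.63 in the 4 libraries of experiment 1 and 0.31, 0.35, 0.37 and 0.29 in those of experiment 2.

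The Polycomb-linked scaffolds ASXL1, BCOR and BCORL1 varied least over the 8 libraries, with coefficients of variation of 2.98%, 5.4% and 6.09%. ASXL1, the PR-DUB cofactor, measured 186.5, 190.1, 183.3 and 189.6 CPM across knockout replicates 1 to 4 and 192.3, 182.5, 198.1 and 196.2 CPM across non-targeting replicates 1 to 4. No member had a smaller spread, and 95.3% of all tested genes had a larger absolute change between experiments. ASXL1 gave log2 fold changes of 0.03 (SE 0.06, edgeR adjusted p = 0.705) between experiments and −0.04 (SE 0.07, edgeR adjusted p = 1) between genotypes. In experiment 2 both knockout libraries lay below both controls.

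BCOR, the PRC1.1 scaffold, was at 186.2, 169.3, 157.7 and 176.9 CPM in the knockout and at 179.7, 178.0, 166.5 and 182.7 CPM in the non-targeting replicates 1 to 4. It gave −0.06 (SE 0.07, edgeR adjusted p = 0.489) between experiments and −0.03 (SE 0.08, edgeR adjusted p = 1) between genotypes. Its relative BCORL1 was at 107.7, 107.6, 100.9 and 120.7 CPM against 115.6, 106.4, 117.2 and 106.6 CPM in the same order. BCORL1 gave 0.03 (SE 0.08, edgeR adjusted p = 0.787) and −0.03 (SE 0.09, edgeR adjusted p = 1). Both genes thus overlapped in every contrast, and the genotype signs of both turned without knockout replicate 3, to 0.0078 for BCOR and 0.0092 for BCORL1.

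PHF6, the NuRD-binding reader, measured 70.8, 72.4, 72.0 and 62.1 CPM across knockout replicates 1 to 4 and 66.7, 70.4, 55.5 and 77.9 CPM across non-targeting replicates 1 to 4. Its lowest and highest libraries were the 2 controls of experiment 2, and the experiments overlapped, at 70.1 ± 2.41 and 66.84 ± 10 CPM. Neither contrast passed, at −0.07 (SE 0.11, edgeR adjusted p = 0.596) between experiments and 0.04 (SE 0.12, edgeR adjusted p = 1) between genotypes. The first depended on the controls: it was called at −0.20 (adjusted p = 0.0305) without non-targeting replicate 4 and was 0.05 without non-targeting replicate 3, and without the latter the genotype contrast was −0.05.

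Effects of knockout were then taken within each experiment and for each guide, where each contrast rests on 2 knockout libraries. No member was called in any of these. In experiment 1 the libraries of the genotypes did not overlap in 5 members (IDH1, KDM6A and PHF6 higher, EZH2 and IDH2 lower in knockout), and in experiment 2 in 2 (IDH1 higher, ASXL1 lower), beside the 36.4% and 23.5% of all genes given above. For experiment 1 edgeR called 0 of 14898 genes (0%), 305 (2.05%) had an unadjusted p under 0.05, and the members ran from −0.15 for EZH2 to 0.20 for IDH1 on the log2 scale (SE 0.11 and 0.10, edgeR adjusted p = 1 for both). Without knockout replicate 1 these became −0.21 and 0.28, and without knockout replicate 2 they became −0.07 and 0.13. In experiment 2 the counts were 0 (0%) and 645 (4.33%), and the members ran from −0.195 for TET2 (SE 0.14) to 0.15 for IDH1 (SE 0.10), with edgeR adjusted p-values of 0.998. None of the unadjusted p-values under 0.05 belonged to a member. DESeq2 called 5 and 13 genes in the 2 experiments, again no member.

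A test of the difference between the 2 experiments' effects called 0 genes (0%) in edgeR and 0 in DESeq2, and the 248 genes (1.66%) with an unadjusted p under 0.05 in edgeR held no member. KDM6A had the largest of the members' differences, −0.22 (experiment 2 minus experiment 1, SE 0.18, edgeR adjusted p = 1), from effects of 0.17 (SE 0.13) and −0.05 (SE 0.13). This difference rests on single control libraries, being −0.0045 without non-targeting replicate 4 and −0.40 without non-targeting replicate 3. At the other end EZH2 had a difference of 0.12 (SE 0.16, edgeR adjusted p = 1), or 0.04 without knockout replicate 2. IDH1 gave 0.20 and 0.15, and IDH2 −0.12 and −0.16, in experiments 1 and 2. The TET2 effect in experiment 2 turned from −0.195 to 0.09 without non-targeting replicate 4, and that of KDM6A from −0.05 to 0.17. Without non-targeting replicate 1, the effect of TET2 in experiment 1 turned from −0.02 to 0.06.

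**Figure D4:**
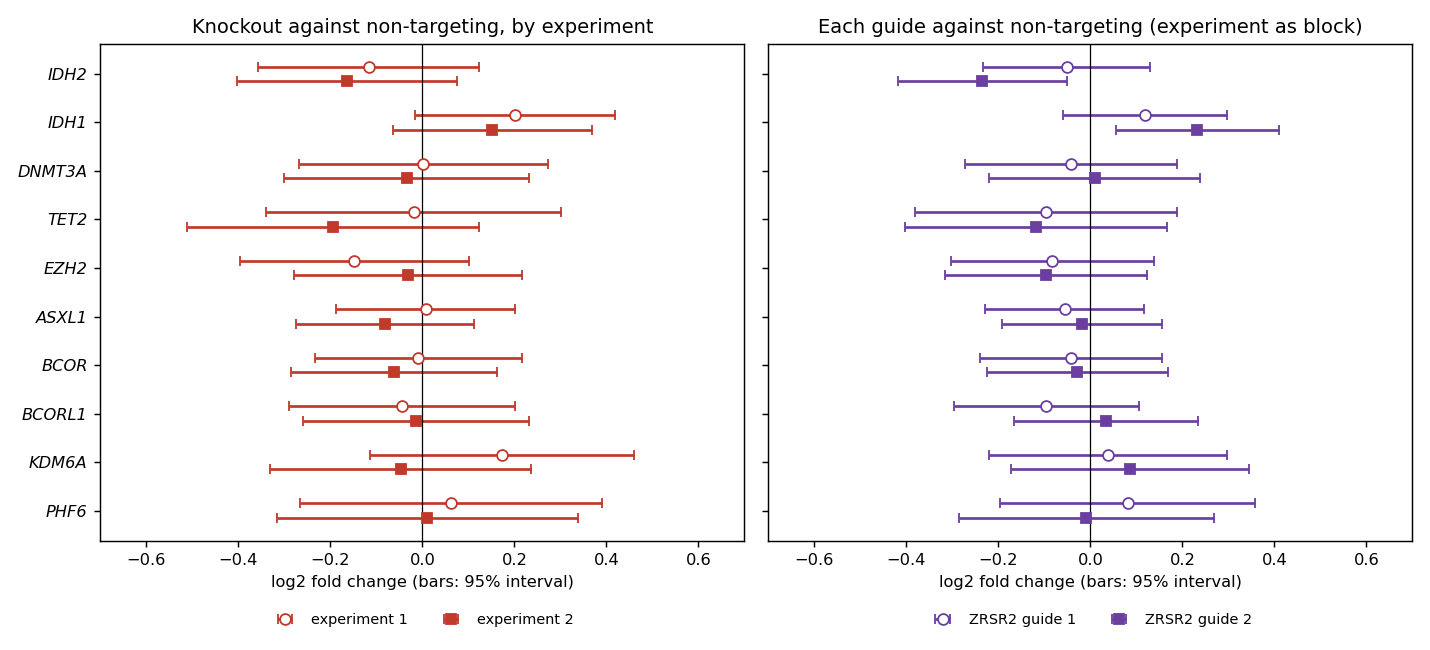
Log2 fold change and 95% interval of each regulator for knockout against non-targeting within experiment 1 (open circles) and experiment 2 (filled squares) on the left, and for each ZRSR2 guide against the 4 non-targeting libraries with the experiment as a block on the right. All intervals on the left include 0, and on the right those of IDH1 and IDH2 for guide 2 do not.

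The 2 ZRSR2 guides share their 4 control libraries, so their values are given side by side. ZRSR2 itself was at −0.45 (SE 0.13) with guide 1 and −0.92 (SE 0.13) with guide 2, with edgeR adjusted p-values of 1. With the experiment as a block it was called for guide 2 (edgeR adjusted p = 0.0303, DESeq2 4.34e-10) and not for guide 1 (edgeR adjusted p = 0.9996, DESeq2 0.466), while the difference between the guides, −0.47 (SE 0.15), had an edgeR adjusted p of 1 without the block and 0.9999 with it. For guide 1 edgeR called 0 genes (0%) and 33 (0.222%) had an unadjusted p under 0.05; for guide 2 it also called 0 (0%) and 98 (0.658%) had one. DESeq2 without the block called 1 and 3 genes. With the experiment as a block edgeR called 0 genes for guide 1 and 3 for guide 2 (0.0201%), DESeq2 called 4 and 51, and in each case no member was among them. IDH1 was at 0.12 (SE 0.13) with guide 1 and 0.24 (SE 0.13) with guide 2, and IDH2 at −0.06 (SE 0.30) and −0.24 (SE 0.31), with edgeR adjusted p-values of 1. Leaving out 1 library moved IDH1 between 0.02 (without knockout replicate 1) and 0.21 (without knockout replicate 3) for guide 1, and between 0.11 (without knockout replicate 2) and 0.36 (without knockout replicate 4) for guide 2. With the block, guide 2 gave 0.23 for IDH1 (95% interval 0.06 to 0.41, edgeR adjusted p = 0.820) and −0.23 for IDH2 (95% interval −0.42 to −0.05, edgeR adjusted p = 0.849). These were the members with an unadjusted p under 0.05 in that fit, which 4.89% of all tested genes had; for guide 1 no member and 2.79% of all tested genes had one.

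Guide 2 was also compared with guide 1 directly. edgeR called 0 genes (0%), and 58 (0.389%) had an unadjusted p under 0.05, or 2.73% with the block, none of them a member. DESeq2 called 0 without and 1 with the block, which was no member. IDH2 had the lowest value of the members, −0.18 (SE 0.35, edgeR adjusted p = 1), with a 95% interval of −0.999 to 0.64 that narrowed to −0.39 to 0.03 with the block. BCORL1 had the highest, 0.13 (SE 0.13, edgeR adjusted p = 1), which was 0.04 without knockout replicate 4 and 0.21 without knockout replicate 2. For guide 1 the sign of IDH2 turned without knockout replicate 1 (0.21), non-targeting replicate 3 (0.10) or non-targeting replicate 4 (0.03), and that of TET2, −0.11 (SE 0.24), without knockout replicate 1 (0.06) or non-targeting replicate 4 (0.09). The value of IDH2 for guide 2 turned without knockout replicate 2 (0.05), and its difference between guides without knockout replicate 2 (0.11) or knockout replicate 3 (0.15). These fits hold no term for experiment, so with 1 library left out the groups compared also differ in their share of each experiment.

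The partners of these regulators were taken as 7 lists of 64 genes, of which 63 were tested. For knockout against non-targeting 0 of the 63 were called by edgeR, 0 had an unadjusted p under 0.05 with or without the block, and log2 fold changes ran from −0.18 to 0.16. The smallest unadjusted p-values belonged to PAXIP1, a subunit of the KMT2C/KMT2D complexes, at 0.16 (SE 0.12), and to CHD3, a remodelling ATPase of NuRD, at −0.17 (SE 0.15), neither significant (edgeR adjusted p = 1 for both). Between experiments 36 of the 63, or 57.1%, were called, against 58.2% of all tested genes. Of these 11 were higher and 25 lower in experiment 2, where all tested genes were nearly balanced (29.6% and 28.6%), and the median log2 fold change of the 63 was −0.09 against 0.0035 over all tested genes. The lists were written with earlier results of these data known, so no test of a list was made.

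**Figure D5:**
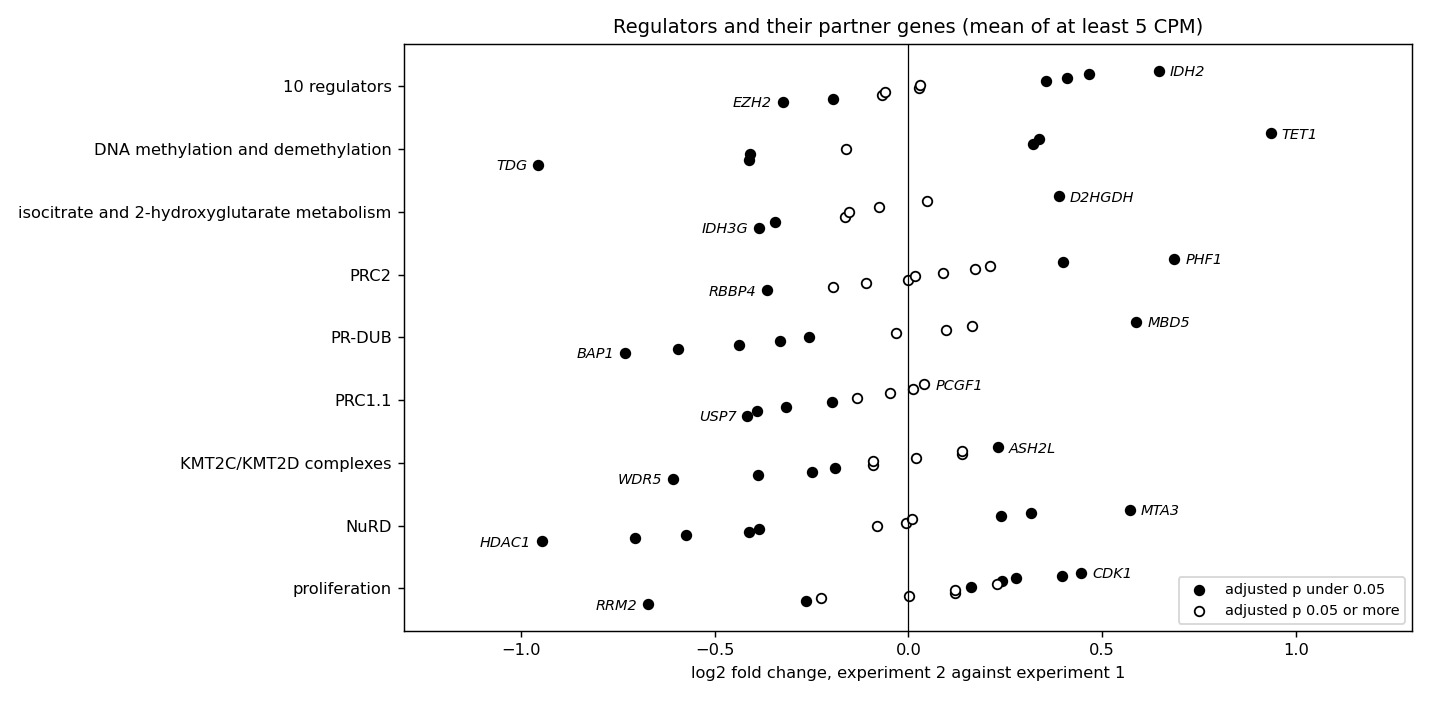
Log2 fold change of experiment 2 against experiment 1 for the 10 regulators, for the partner genes of each list and for 12 proliferation genes, for genes with a mean of at least 5 CPM; filled points have an edgeR adjusted p under 0.05, and the outermost gene on each side is named. Every row has points on both sides of 0, and called genes reach furthest to the left in the DNA methylation (TDG) and NuRD (HDAC1) rows and furthest to the right in the DNA methylation row (TET1).

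In the DNA methylation list 3 of 7 tested genes rose and 3 fell, beside 29.6% and 28.6% of all tested genes. TET1 and TET3, the relatives of TET2, rose with it, by log2 fold changes of 0.93 (SE 0.17, edgeR adjusted p = 7.95e-04) and 0.34 (SE 0.09, edgeR adjusted p = 0.0102), as did the glycosylase MBD4 at 0.32. TDG, the glycosylase that removes oxidised methylcytosine, fell from 47.6 ± 1.32 to 24.6 ± 2.13 CPM, by 0.96 on the log2 scale. DNMT3B, the other de novo methyltransferase, went opposite to DNMT3A, from 105.8 ± 3.28 to 79.55 ± 2.01 CPM (log2 fold change −0.41), and UHRF1, which guides maintenance methylation, had −0.41 as well.

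Around IDH1 and IDH2, 1 of 7 genes rose and 2 fell, beside 29.6% and 28.6% of all tested genes, shares to set beside PRC2 as well. D2HGDH, the dehydrogenase that clears the D form of 2-hydroxyglutarate, rose by 0.39 on the log2 scale (SE 0.09, edgeR adjusted p = 0.00335). IDH3G, a subunit of the NAD-dependent enzyme, fell by 0.39 and ACO1, the cytosolic aconitase, by 0.34 on the log2 scale. In PRC2, 2 of 10 rose and 1 fell: EZH1, the paralogue of EZH2, had 0.40, opposite in sign to EZH2, PHF1, an accessory subunit, had 0.69, and the histone-binding RBBP4 had −0.37.

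Of 10 PR-DUB partners 1 was called higher and 6 lower in experiment 2, beside 29.6% and 28.6% of all tested genes; ASXL1 itself was not called, and no test of the list was made. One of the 6 was ASXL3, whose mean was 1.39 CPM. BAP1, the catalytic subunit, fell from 183.6 ± 3.11 to 110.7 ± 10.3 CPM, by 0.73 on the log2 scale (SE 0.08, edgeR adjusted p = 2.78e-05). HCFC1, a BAP1-bound host cell factor, had −0.59 and the demethylase KDM1B −0.44, while MBD5 had 0.59. PRC1.1 showed 0 of 8 higher and 4 lower, with USP7 at −0.42, RYBP at −0.39 and RING1, a ubiquitin ligase subunit, at −0.32, while its scaffolds BCOR and BCORL1 were not called.

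Of 10 tested genes in the KMT2C/KMT2D list, 1 was higher and 4 lower, beside 29.6% and 28.6% of all tested genes. This list holds KDM6B, a paralogue of KDM6A, besides genes of the complexes to which KDM6A belongs. The shared core subunits differed in sign, ASH2L at 0.23 and WDR5 at −0.61, and PAGR1 (−0.39) and PAXIP1 (−0.25) fell. NuRD had 3 of 11 higher and 5 lower, beside the same shares of all tested genes. Paralogues split here as well: CHD4 fell from 1036 ± 35.8 to 636 ± 52.98 CPM (log2 fold change −0.70) and CHD3 rose (0.32), while HDAC1 (−0.94) and MBD3 (−0.57) fell and MTA3 (0.57) and MTA1 (0.24) rose. Of the 29 called partner genes named list by list for this contrast, 21 kept the call whichever 1 library was left out. The other 8 (ACO1, ASH2L, EZH1, MBD4, MTA1, PAXIP1, RYBP and TET3) lost it without at least 1 of knockout replicates 1, 2 and 3 and non-targeting replicates 1 and 2. Their edgeR adjusted p-values were then between 0.0510 and 0.101. In the knockout libraries alone these 8 also lost the call. So did D2HGDH, KDM1B and CHD3 (edgeR adjusted p = 0.0569, 0.0642 and 0.140). In the non-targeting libraries alone RYBP, PAXIP1 and MTA1 lost it.

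How alike the members were across libraries was measured as the root mean square difference of log2 CPM, each gene centred on its own mean over the 8 libraries, against 71 other member and partner genes. TET2 was nearest to KDM6A, at 0.096, and both had their highest value in non-targeting replicate 4. IDH2 was nearest to PHF1 at 0.081, EZH2 to DNMT3B at 0.066 and DNMT3A to D2HGDH at 0.11. IDH1 lay nearest to PAXIP1, at 0.040, the closest of the 10 matches. The steady members paired with other steady genes: ASXL1 with PHF19 at 0.056, BCOR with PHF19 at 0.073 and BCORL1 with ASXL1 at 0.068. KDM6A was nearest to AEBP2 at 0.095 and PHF6 to RNF2 at 0.080. The most unlike pair of members was EZH2 and IDH2, at 0.49, followed by IDH1 and IDH2 at 0.46. Since the libraries fall into 2 clusters by experiment, these distances mostly rank genes by how they differ between the experiments.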

How the data were processed

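Messenger RNA was measured in 8 SET-2 libraries. The values the authors deposited are expected counts per gene symbol from RSEM 1.2.30, after cutadapt 1.11, on hg19, per the submitters' processing notes; aligner, annotation and use of strand are not given in the sources used here. All values were whole (100%), so rounding changed none, 0 rows named no gene, and 0 columns belonged to other samples. Per the labels' protocols, library preparation used a Kapa kit for mRNA.

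Genes were filtered with filterByExpr on genotype (14898 of 25435 left), scaled by TMM and tested with edgeR 4.0.16 (quasi-likelihood F test, Benjamini-Hochberg adjustment over all tested genes, threshold 0.05). Knockout against non-targeting used genotype alone; experiments and the effects within them came from 1 fit with genotype by experiment, and guides from 1 fit with 3 groups. DESeq2 1.42.0, other scalings and filters, and leaving out each library were alternatives. R was 4.3.3, Python 3.11.15 and matplotlib 3.10.9. Fits were tested on simulated data. SE and intervals derive from the F statistic. In fits without the experiment, p-values measure the spread between guides and experiments. In the fit with genotype by experiment each group holds 2 libraries of 1 experiment, which differ by guide. Its p-values measure the spread between those libraries, and no spread between repeated experiments is measured.

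The experiment number pairs the libraries, and its match to a day of the protocol is an assumption. Across genes, the correlation of deviations from the genotype mean was 0.678 to 0.846 in 8 knockout and control pairs of the same experiment. It was −0.816 to −0.709 in 8 pairs of different experiments. Deviations from a mean cancel out within each genotype, so the negative values follow from the positive ones and are no separate evidence. edgeR's common coefficient of biological variation fell from 0.29 to 0.108 on adding the experiment as a block. No 2 libraries agreed within sampling noise (smallest chi-square per degree of freedom 3.05). One count was worth 0.014 to 0.0321 CPM. Promoter windows and symbols come from RefSeq (GRCh38.p14), and lengths and chromosomes from GENCODE 29; no other coordinates are given, since the files are on hg19.

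The members and gene lists were chosen with earlier results of these data known. Named were ZRSR2, all 10 members and, per partner list, the 3 largest called changes in each direction among genes averaging 5 CPM or more. Where nothing was called, the 2 partner genes of smallest unadjusted p were named. KDM6B was named in addition, after its value was seen. One gene of a partner list is not reported here and was left out of the list counts.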

Additional observations from a re-analysis of the deposited data

Results flagged for a closer look

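In 22 groups of 4 libraries (the 10 members and the library totals, by genotype), a value far from the other 3 was sought. Chance alone flags about 1 in 20 such groups, here 1.1, if the 4 values are drawn alike. Each group spans both experiments, which did not overlap for TET2, DNMT3A, EZH2, IDH2 and KDM6A, so that rate need not hold here. The number found was 2. PHF6 in knockout replicate 4 was at 62.06 CPM, while the other knockout libraries lay between 70.76 and 72.43 CPM, so that the gap to the nearest was 0.839 of the range. The total of non-targeting replicate 3 was 71521173 expected counts, while the other controls lay between 31106042 and 36544665, a gap of 0.865 of the range.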

How the results depend on the processing

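Of 86 results, 1256 values under alternatives were computed. The number of members called was 0 for every genotype and guide contrast in every setting run. With the replicate block edgeR called 3 genes for guide 2 against non-targeting in place of 0, and the experiment as a block changed no other call in edgeR. DESeq2 called 4 genes for knockout against non-targeting (31 with the block), 5 in experiment 1, 13 in experiment 2, 1 for guide 1 (4 with the block), 3 for guide 2 (51 with the block) and 1 for guide 2 against guide 1 with the block. With no count filter, 40 genes were called in experiment 1, 116 in experiment 2 and 5 for the difference of effects. Leaving out 1 library gave 0 to 2 genes in experiment 1 (2 without knockout replicate 1) and 0 to 154 in experiment 2 (154, 38 higher and 116 lower, without non-targeting replicate 3). Between experiments it gave 7178 to 9193 genes and 5 to 7 members. The knockout libraries alone called 5498 genes and 2 members (DNMT3A and IDH2), and the non-targeting libraries alone 5 members; this alternative, like scaling by total counts alone, was chosen after seeing the data. The cause of these shifts was not tested, and leaving out libraries also lowers their number.

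Signs turned in 29 values, all of contrasts that were not called. Scaling by total counts alone moved DNMT3A (genotypes) to 0.011, and the knockout libraries alone moved ASXL1 (experiments) to −0.014. The rest came from leaving out 1 library. The main genotype and guide fits hold no term for experiment. In them, leaving out 1 library also left the experiments unequal between the groups, and the block was not run with a library left out. For genotypes the ranges were −0.22 to 0.081 for TET2, −0.11 to 0.12 for DNMT3A, −0.28 to 0.0094 for IDH2, −0.043 to 0.22 for KDM6A, −0.073 to 0.0078 for BCOR, −0.081 to 0.0092 for BCORL1 and −0.048 to 0.12 for PHF6. For experiments they were −0.039 to 0.093 for BCORL1 and −0.20 to 0.047 for PHF6. Within experiments they were −0.082 to 0.058 (TET2, experiment 1), −0.42 to 0.090 (TET2, experiment 2) and −0.23 to 0.17 (KDM6A, experiment 2). By guide they were −0.30 to 0.094 (TET2, guide 1), −0.39 to 0.21 (IDH2, guide 1), −0.60 to 0.052 (IDH2, guide 2) and −0.54 to 0.15 (IDH2, guide 2 against 1). With 2 libraries a group the lone library left is assumed to vary like the others. The lowest count of a member in a library was 1038, and the part of depth in these values was not tested. Intervals cover these 8 libraries of 1 line.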

Other observations

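The balance of the isocitrate dehydrogenases, examined after the values were seen and without a test, differed by library. The ratio of IDH2 to IDH1 counts was 1.80 and 1.41 in the knockout and 2.00 and 1.98 in the control libraries of experiment 1. For experiment 2 the knockout libraries had ratios of 3.10 and 2.63 and the controls 3.65 and 3.46. Knockout libraries were thus below the controls within each experiment, and the guide 2 library was the lower of the knockout pair in both. Every library of experiment 2 was above every library of experiment 1. The share of gene pairs with such gaps was not computed. Of single tested genes, 36.4% and 23.5% had no overlap between genotypes in experiments 1 and 2, and 56% had none between experiments. Neither IDH1 nor IDH2 was called in any genotype or guide fit.

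ASXL3, a paralogue of ASXL1 and ASXL2 in the PR-DUB list, fell below the level at which partner genes were named: it averaged 2.74 ± 0.59 CPM in experiment 1 and 0.046 ± 0.065 CPM in experiment 2 (SD, n = 4 each). Its 4 libraries of experiment 1 lay between 2.03 and 3.42 CPM and those of experiment 2 between 0 and 0.137 CPM. ASXL2 was at 117.1 ± 4.28 and 93.1 ± 5.34 CPM (log2 fold change −0.33, edgeR adjusted p = 0.0018). Both genes were chosen for mention after their values were seen.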
